A study of Mus musculus with 20 samples.

Results

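The 7 genes used as markers of macrophages and other antigen-presenting cells were followed across 20 samples of mouse ileal mucosa. They are Chi3l3, Cd163, Cd14, Cd86, Fcgr2b, Cx3cr1 and Cd74, each taken by its symbol in the table of 648 real-time PCR assays for 584 genes. Each of the 7 genes had 1 assay, all 7 gave a value in all 20 samples, and all 7 passed the filter that at least 3 samples of every group had a value. There were 5 samples per group. Healthy mice received PBS into the rectum and PBS by mouth. The DNBS group was given DNBS into the rectum and PBS by mouth. DNBS, dinitrobenzene sulfonic acid, is a hapten used to induce colitis. The CEC group received intrarectal DNBS and an oral treatment that the labels call CEC. The Nissle group received intrarectal DNBS and oral Nissle, a name borne by a probiotic Escherichia coli strain. Strain, age, doses and days are not given in the sources used here. For Nissle 3, 4 and 5, 1 label names the healthy controls, whereas the title, the description and both treatments name Nissle. They were kept in the Nissle group.

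Intestinal macrophages arise largely from blood monocytes, which lose inflammatory features as they settle in the lamina propria, and they take up bacteria that cross the epithelium. Dendritic cells and B cells share with them the machinery that loads peptides on MHC class II molecules and the ligands that costimulate T cells. Chi3l3 (now Chil3, the chitinase-like protein Ym1) marks alternatively activated macrophages and is also made by neutrophils and their precursors. Cd163, the scavenger receptor for haemoglobin bound to haptoglobin, marks tissue-resident macrophages. Cd14 hands bacterial lipopolysaccharide to the receptor Tlr4 and is present on monocytes, macrophages and neutrophils. Cd86 is a ligand of Cd28 and Ctla4 on T cells, and Fcgr2b is the inhibitory receptor for IgG. Cx3cr1 is the receptor for fractalkine and is abundant on resident gut macrophages. Cd74, the invariant chain, escorts MHC class II molecules, is a receptor for the cytokine MIF, and can also be made by intestinal epithelium.

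The 250 bases upstream of the Chil3 start are shown because this gene varied most, and because its transcription is known to respond to interleukin-4 through Stat6. They lie on chromosome 3 of GRCm38.p6 at chr3:106167565-106167814, on the minus strand, and are taken from RefSeq. Capitals mark the 1 match to TTCNNNGAA, the palindrome that STAT proteins in general recognise. It reads the same on both strands, so one search covers both.
Chil3: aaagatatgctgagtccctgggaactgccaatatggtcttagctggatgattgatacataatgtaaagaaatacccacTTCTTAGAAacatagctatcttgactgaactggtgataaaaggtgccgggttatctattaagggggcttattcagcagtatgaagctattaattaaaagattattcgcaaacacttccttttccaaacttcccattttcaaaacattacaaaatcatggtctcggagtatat
The match begins 172 bases before the start. Of 32851 promoter windows of the same length, 2306 (7.02%) hold this motif. The form with 4 bases between the half-sites, which Stat6 prefers, has no match in this window and occurs in 5.85% of all windows. RefSeq windows were at hand for 4 of the genes described here, and those of Cd163, Fcgr2b and Cx3cr1 hold neither form. A match in letters is a description and does not show that a factor binds there.

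Levels are given as cycle threshold (Ct, the cycle at which the fluorescence of the product crosses a set line) with the sign turned, relative to the mean of the 544 assays measured in every sample. One unit is a doubling if each cycle doubles the product, and levels of different assays cannot be ranked against each other. Each sample had values for 570 to 594 assays, and the mean Ct of the 544 assays was 22.6 to 24.3. Across the deposited order of the assays, samples carried shared shifts in sections of 54 lines. These shifts were widest in DNBS 1, DNBS 5 and healthy 5, and values with each section centred on its own median are given beside the markers. The mucosa holds many cell types, so more cells of a type and more RNA per cell cannot be told apart. Of the genes that mark small intestinal epithelium, Ccl25 and Apoa1 gave a value in all 20 samples and Apoa4 in 0. The series text speaks of pooled RNA, and whether a sample is 1 mouse is not given. The p-values therefore measure only the spread between these samples.

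**Figure D1:**
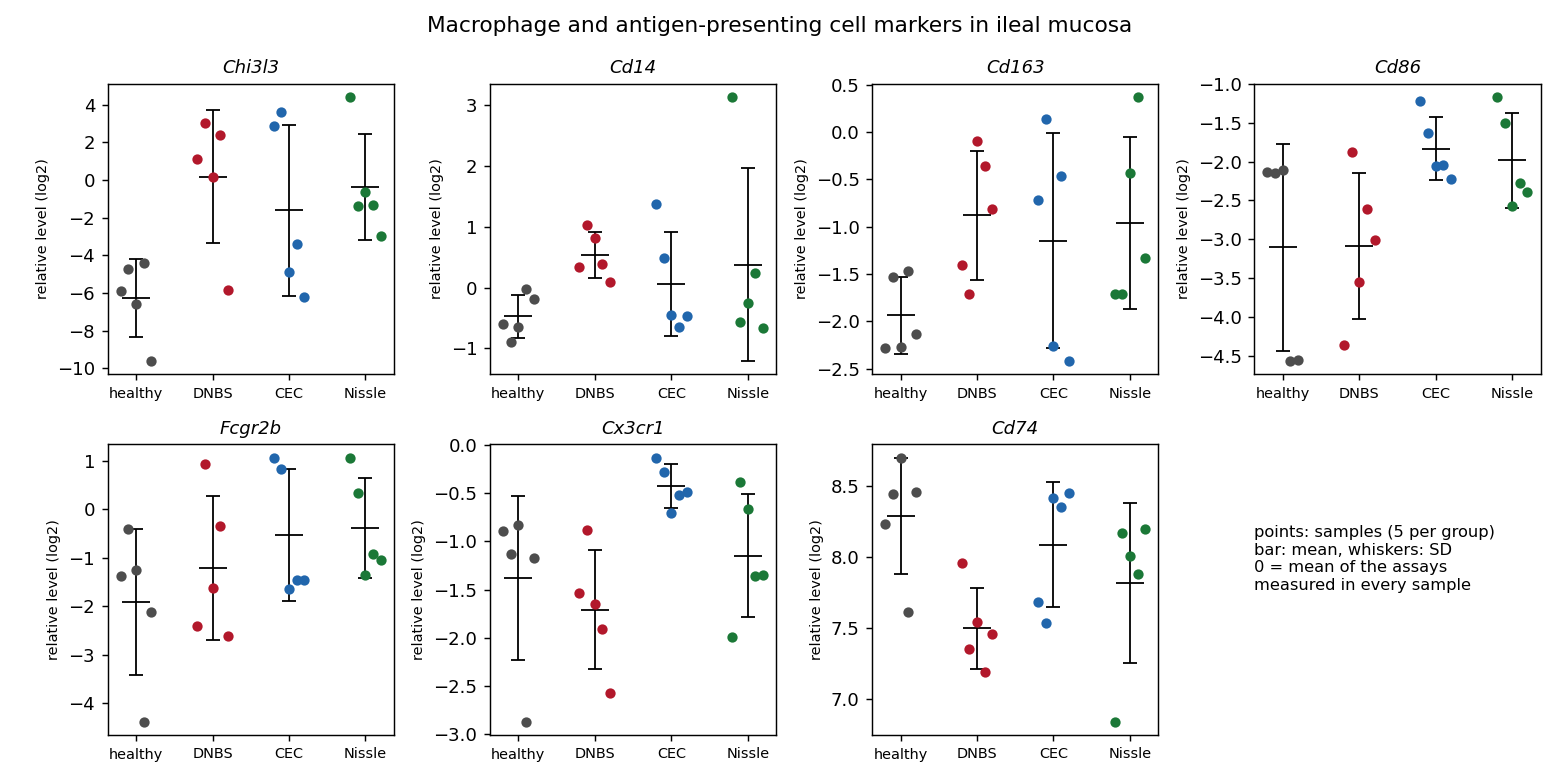
Relative level (log2, vertical axis, own scale per gene) of the 7 markers in each of the 20 samples, with the mean (bar) and SD (whiskers) of each group of 5. Chi3l3 spans from -9.62 to 4.43, and in Cx3cr1 the 5 CEC samples lie above all healthy and all DNBS samples.

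Chi3l3 varied more than any other assay measured in every sample, with levels 14.0 log2 units apart (rank 1 of 544), corresponding to Ct values from 33.3 down to 18.2. In healthy mucosa it stood at -5.90, -4.71, -6.61, -4.43 and -9.62 (samples 1b, 3, 4, 5 and 6). In the DNBS group it stood at 1.14, 3.06, 0.16, 2.39 and -5.84 (samples 1 to 5). In all, 4 DNBS samples lay above every healthy sample and DNBS 5 lay among them. In the CEC group the values were 2.86, 3.61, -4.88, -3.40 and -6.21 (samples 1, 3, 5, 7 and 8), so that CEC 1 and 3 were at the level of the high DNBS samples and the other 3 were near the healthy range. In the Nissle group the values were 4.43, -1.39, -0.62, -1.33 and -2.96 (samples 1 to 5), all above the highest healthy sample. Of the 15 samples that received DNBS, 12 exceeded the highest healthy sample and 0 fell below the lowest.

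The group means of Chi3l3 were -6.25 ± 2.08 in healthy, 0.18 ± 3.55 in DNBS, -1.61 ± 4.53 in CEC and -0.37 ± 2.82 in Nissle (SD, n = 5 each). The order was DNBS, Nissle, CEC and then healthy, and the first 3 differed by less than their spread. The DNBS mean was 6.44 higher than healthy (SE 1.89, 86.6-fold, higher than every healthy sample in 4 of 5), the Nissle mean 5.88 higher (58.9-fold, 5 of 5) and the CEC mean 4.65 higher (25.1-fold, 3 of 5), all against the same 5 healthy samples. None passed after Benjamini-Hochberg adjustment over the 569 assays tested with limma (adjusted p = 0.122, 0.488 and 0.803). CEC minus DNBS was -1.79 (SE 1.89, adjusted p = 0.712). Without DNBS 5 the difference between DNBS and healthy was 7.94 and passed (adjusted p = 0.0382), as did 1.23% of all assays. With samples weighted by their reliability in limma it was 7.65 and passed (adjusted p = 0.00251), where 17.8% of all assays did, and CEC minus DNBS was then -5.09 (adjusted p = 0.0311), where 8.26% of all assays passed. With the sample number as a block, DNBS minus healthy was 4.24 (adjusted p = 0.422). Over the 32 alternatives run, the adjusted p of DNBS minus healthy ran from 0.00251 to 0.422 and that of CEC minus DNBS from 0.0311 to 0.942. CEC minus DNBS turned to 0.51 with the block, in which CEC 7 and CEC 8 carry no weight because no other group has their numbers. Leaving out 1 sample at a time moved CEC minus DNBS between -3.29 (without DNBS 5) and -0.63 (without CEC 8). Without Nissle 3, 4 and 5, Nissle minus healthy was 7.77 and did not pass. The section that holds Chi3l3 was shifted by -0.68 in DNBS 5 and -0.82 in healthy 5, and with sections centred DNBS minus healthy was 6.51, CEC minus healthy 4.44 and Nissle minus healthy 5.90.

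Cd163 had a narrower range. The healthy values were -2.28, -1.53, -2.28, -1.46 and -2.13, and the DNBS values -1.41, -1.71, -0.10, -0.36 and -0.81. Of the 5 DNBS samples, 4 exceeded the highest healthy one. The CEC values were -0.72, 0.14, -2.27, -0.46 and -2.42, and the Nissle values -1.71, -1.71, -0.44, 0.37 and -1.33. Both groups overlapped healthy, with 3 of 5 samples above its highest value in each. Group means were -0.88 ± 0.68 in DNBS, -0.96 ± 0.91 in Nissle, -1.15 ± 1.14 in CEC and -1.94 ± 0.41 in healthy (SD, n = 5), and no neighbours in this order differed beyond their spread. DNBS exceeded healthy by 1.06 (SE 0.50, 2.08-fold, adjusted p = 0.331), Nissle by 0.97 (adjusted p = 0.5) and CEC by 0.79 (adjusted p = 0.803). With sample weights the first of these was 1.31 and passed (adjusted p = 0.0456, range over the 32 alternatives 0.0456 to 0.608), as did 17.8% of all assays. Without Nissle 3, 4 and 5, Nissle minus healthy was 0.22, since Nissle 1 and 2 both stood at -1.71, and without Nissle 4 alone it was 0.64. Without CEC 3, CEC minus healthy was 0.47. The section that holds Cd163 was shifted by 1.29 in DNBS 5 and 1.15 in healthy 5. With sections centred DNBS 5 stood at -2.11 against a highest healthy value of -1.23, so that 3 of 5 DNBS samples exceeded it, while DNBS minus healthy was 1.07 (SE 0.51), CEC minus healthy 1.04 and Nissle minus healthy 1.20. Over the 20 samples the assays most like Cd163 by Pearson correlation were Lbp (r 0.78), Darc (r 0.76) and Mrc1 (r 0.72). With sections centred these were 0.76, 0.73 and 0.72.

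Genes that report on alternative activation and on the macrophage lineage were set beside Chi3l3 and Cd163. Of the 6 tested assays for interleukin-4, interleukin-13 and interleukin-10 signalling and Hmox1, which breaks down haem taken up through Cd163, 4 were higher in DNBS than in healthy and 0 passed, with a median of 0.08. Hmox1 was 0.999 higher (SE 0.52, adjusted p = 0.4). Il4 gave a value in 6 samples, Il13 in 4 and Il10 in 0, so these cytokines, known inducers of Chi3l3 and Cd163, gave no value in most samples. Of 8 further assays of macrophage, monocyte and dendritic cell genes (Itgam, Csf1, Cd80, Cd40, Mrc1, Ccr2, Ccr7 and Aif1), 6 were higher in DNBS than in healthy with a median of 0.17, and 0 passed. In CEC against DNBS 1 of 8 was higher, with a median of -0.36, and 0 passed. With sections centred the median was -0.12, with 2 of 8 higher. The 1 assay higher without centring was Itgam, an integrin chain of myeloid cells, at 1.01 (SE 0.43, adjusted p = 0.444).

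Cd14 separated the DNBS group from healthy mucosa. Healthy values were -0.60, -0.89, -0.64, -0.03 and -0.19, and DNBS values 0.33, 1.02, 0.81, 0.38 and 0.10. Every DNBS sample was above every healthy one. CEC values were 1.38, 0.48, -0.45, -0.65 and -0.47, with CEC 1 and 3 above the healthy range and the rest within it. Nissle values were 3.13, -0.57, -0.26, 0.25 and -0.67, and Nissle 1 stood apart from the other 4. The means were 0.53 ± 0.38 in DNBS, 0.38 ± 1.58 in Nissle, 0.06 ± 0.86 in CEC and -0.47 ± 0.35 in healthy (SD, n = 5), and only DNBS and healthy, the ends of this order, did not overlap. DNBS exceeded healthy by 0.999 (SE 0.55, higher in 5 of 5 samples), which did not pass (adjusted p = 0.408). The model shares 1 spread over all groups, and without Nissle 1 the same difference had an SE of 0.35 (adjusted p = 0.104). With sample weights the difference was 1.08 and passed (adjusted p = 0.0308), as did 17.8% of all assays. With the sample number as a block it was 0.72 (adjusted p = 0.754). These were the lowest and highest adjusted p over the 32 alternatives. Nissle exceeded healthy by 0.85 (adjusted p = 0.553) and by 0.16 without Nissle 1, and by 1.74 without Nissle 3, 4 and 5. CEC exceeded healthy by 0.53 (adjusted p = 0.821), and by 0.20 without CEC 1. With sections centred, DNBS minus healthy was 1.10 and the groups still did not overlap. Before centring, 4.75% of all assays had no overlap in this comparison, and the share after centring was not counted. The assay carries the supplier's suffix _g1, which means that it can also amplify genomic DNA. Centring all single-exon and genomic assays (suffixes _s1, _g1 and _sH) together on their joint mean gave 1.30 for DNBS minus healthy, which did not pass. In that comparison the 51 tested _g1 assays had a median of -0.09 and the 53 _s1 assays, with primers and probe in 1 exon, -0.65. The joint mean therefore does not isolate the shift of the _g1 assays.

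A list made around the lipopolysaccharide receptor and Toll-like receptor signalling had 7 assays (Tlr4, Lbp, Myd88, Irak1, Irak2, Irak4 and Tlr2). Ly96, Ticam1 and Ticam2 were not on the panel. Among the 7 assays, 5 were higher in DNBS than in healthy and 0 passed (median 0.03). Lbp, the serum protein that delivers lipopolysaccharide to Cd14, had the smallest p, at 1.19 higher (SE 0.40, adjusted p = 0.158), followed by Tlr4 at 0.68 (adjusted p = 0.408). In CEC against DNBS 2 of the 7 were higher (median -0.42, or -0.14 with sections centred), and 0 passed. Tlr4 was lower there, by -0.78 (SE 0.37, adjusted p = 0.455).

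Chi3l3 and Cd14 had levels that moved with the same other assays from sample to sample. Over the 20 samples, the assay most like Chi3l3 among the 544 was S100a8, a calcium-binding protein abundant in neutrophils and monocytes (Pearson r 0.91, Spearman rho 0.91), followed by its partner S100a9 (r 0.91) and by Selp, the platelet and endothelial selectin (r 0.89). For Cd14 it was the same S100a8 assay (r 0.88, rho 0.83), then the second S100a8 assay (r 0.87) and Selp (r 0.84). After taking out the group means the S100a8 values were 0.89 for Chi3l3 and 0.85 for Cd14, and without the 2 samples farthest from the median they were 0.94 and 0.84. These are descriptions. The points share their RNA preparation and the centring of each sample, and 4 groups are mixed in them.

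Neutrophil genes broadly moved along with both markers. Their S100a8 and S100a9 assays are among those named above as most like Chi3l3 or Cd14. The 8 assays (S100a8 with 2, S100a9, Ltf, Camp, Ncf1, Il8rb and Fpr1), which monocytes express in part as well, averaged from -3.29 to -1.71 in healthy samples. In DNBS the averages ran from -2.25, in DNBS 5, to 0.79, and in CEC from -2.82 to 0.45 with CEC 1 and 3 the highest. In Nissle they ran from -2.43 to 2.66, the latter in Nissle 1. Thus DNBS 5, CEC 5, CEC 7 and CEC 8, where Chi3l3 was low, were also low in neutrophil genes, and Nissle 1, where Chi3l3 and Cd14 were highest, was highest in them. Cd14 in DNBS 5, at 0.10, was nevertheless above every healthy sample, while the neutrophil average of DNBS 5 was within the healthy range. The neutrophil averages of CEC 7, Nissle 3 and Nissle 5 (-2.82, -1.78 and -2.43) were also within that range. Chi3l3 in these samples (-3.40, -0.62 and -2.96) was above every healthy sample, the highest of which stood at -4.43. All 8 neutrophil assays were higher in DNBS than in healthy (median 2.14), 7 of 8 in CEC (median 0.93) and 8 of 8 in Nissle (median 1.38), with 0 passing in each comparison. With sections centred the counts were 6, 7 and 8 of 8. The part of neutrophil RNA in the Chi3l3 and Cd14 differences was not tested. The suffix _mH of the Chi3l3 assay marks a target from a family of close homology, and the part of a paralogue in its signal was not tested.

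**Figure D2:**
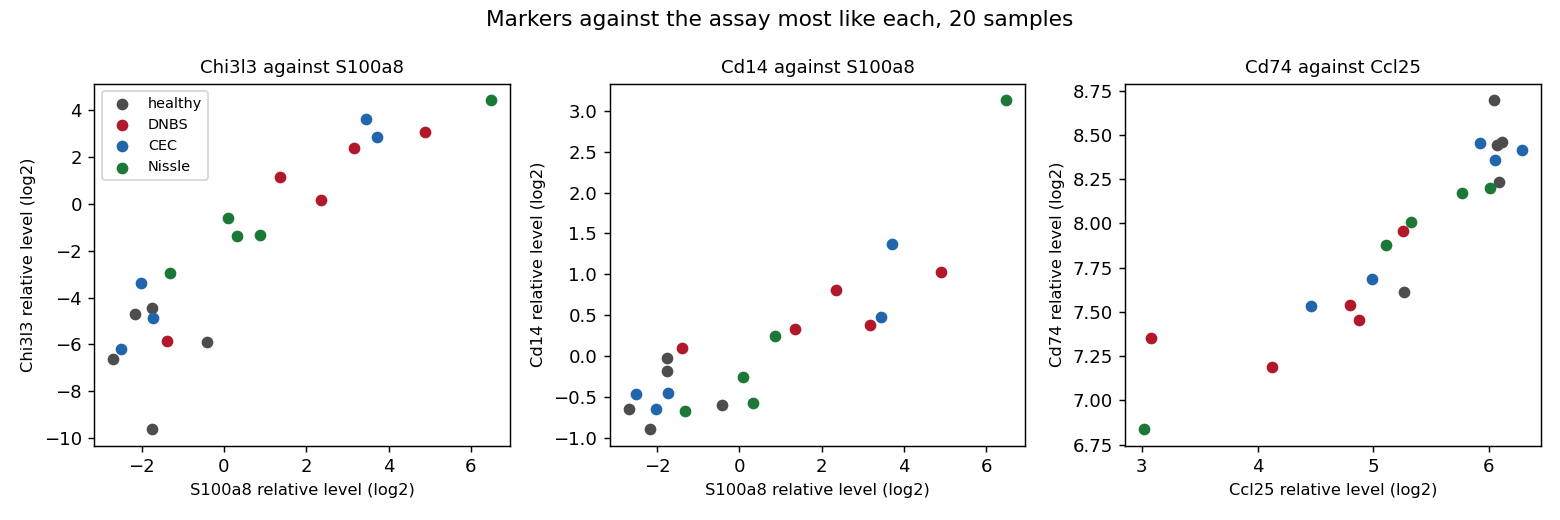
Relative level (log2) in 20 samples of Chi3l3 and Cd14 against S100a8 and of Cd74 against Ccl25, coloured by group. Chi3l3 and Cd14 run upwards with S100a8 (r 0.91 and 0.88), with Nissle 1 at the upper end, and Cd74 runs upwards with Ccl25 (r 0.92), with Nissle 1 at the lower end.

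Cd86 was lowest in a few healthy and DNBS samples. Healthy values were -2.13, -2.15, -2.11, -4.56 and -4.55, and DNBS values -4.36, -1.88, -3.55, -2.61 and -3.01. The healthy group thus fell into 3 samples near -2.11 and 2 near -4.55. CEC values were -1.22, -1.63, -2.06, -2.04 and -2.23, and Nissle values -1.17, -1.50, -2.57, -2.28 and -2.39. Both groups lacked the low samples. Means were -1.84 ± 0.41 in CEC, -1.98 ± 0.61 in Nissle, -3.08 ± 0.94 in DNBS and -3.10 ± 1.33 in healthy (SD, n = 5). DNBS and healthy differed by 0.02 (SE 0.55), with a direction that turned under other settings. CEC exceeded DNBS by 1.25 (SE 0.55, 2.37-fold, above every DNBS sample in 2 of 5, adjusted p = 0.455) and healthy by 1.26 (adjusted p = 0.803), and Nissle exceeded DNBS by 1.10 (adjusted p = 0.85) and healthy by 1.12 (adjusted p = 0.5). Without Nissle 3, 4 and 5, Nissle minus healthy was 1.76.

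Fcgr2b had much the same low samples. Healthy values were -1.37, -0.41, -1.26, -4.38 and -2.11, and DNBS values -2.40, 0.93, -1.62, -0.34 and -2.62. Healthy 5 was the lowest of all 20. CEC values were 1.06, 0.84, -1.65, -1.46 and -1.46, and Nissle values 1.07, 0.33, -1.35, -0.91 and -1.04. In each of these 2 groups 2 samples stood above the healthy range and 3 within it. Means were -0.38 ± 1.03 in Nissle, -0.53 ± 1.36 in CEC, -1.21 ± 1.49 in DNBS and -1.91 ± 1.51 in healthy (SD, n = 5), each step smaller than the spread. Nissle exceeded healthy by 1.53 (SE 0.78, adjusted p = 0.5), CEC by 1.37 (adjusted p = 0.803) and DNBS by 0.69 (adjusted p = 0.741). Without healthy 5 these differences were 0.91, 0.75 and 0.07, and without DNBS 2 the last was 0.16. Without Nissle 3, 4 and 5, Nissle minus healthy was 2.60.

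Both assays lie in the first section of 54 lines of the table, whose 44 tested assays shared a shift from sample to sample. The median shift of that section ran from -1.71 in healthy 5, -1.43 in DNBS 1 and -1.14 in DNBS 5 to 0.93 in CEC 1, and the median difference of the 44 assays between CEC and DNBS was 0.80. What the sections correspond to is not given in the labels. With every section centred on its own median, CEC minus DNBS was 0.41 for Cd86 (SE 0.35) against 1.25 before, and -0.16 for Fcgr2b (SE 0.50) against 0.68 before, a change of sign. CEC minus healthy was then 0.71 for Cd86 and 0.81 for Fcgr2b, Nissle minus healthy 0.72 and 1.13, and DNBS minus healthy 0.30 and 0.97. The low healthy values of Cd86 moved from -4.56 to -2.85 in healthy 5 and from -4.55 to -3.98 in healthy 6.

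Likeness followed the section as well. Over the 20 samples Cd86 was most like Fcgr2b (r 0.82), Ifngr1, a chain of the interferon-gamma receptor (r 0.82), and C1qb, a complement chain made by macrophages (r 0.81). Fcgr2b was most like Grem1, a BMP antagonist of stromal cells (r 0.90), C1qb (r 0.89) and Irak3, an inhibitor of Toll-like receptor signalling (r 0.87). All 5 of these partners lie in the same section. After centring, the values for Cd86 were 0.46, 0.19 and 0.19, and those for Fcgr2b were 0.73, 0.62 and 0.65.

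**Figure D3:**
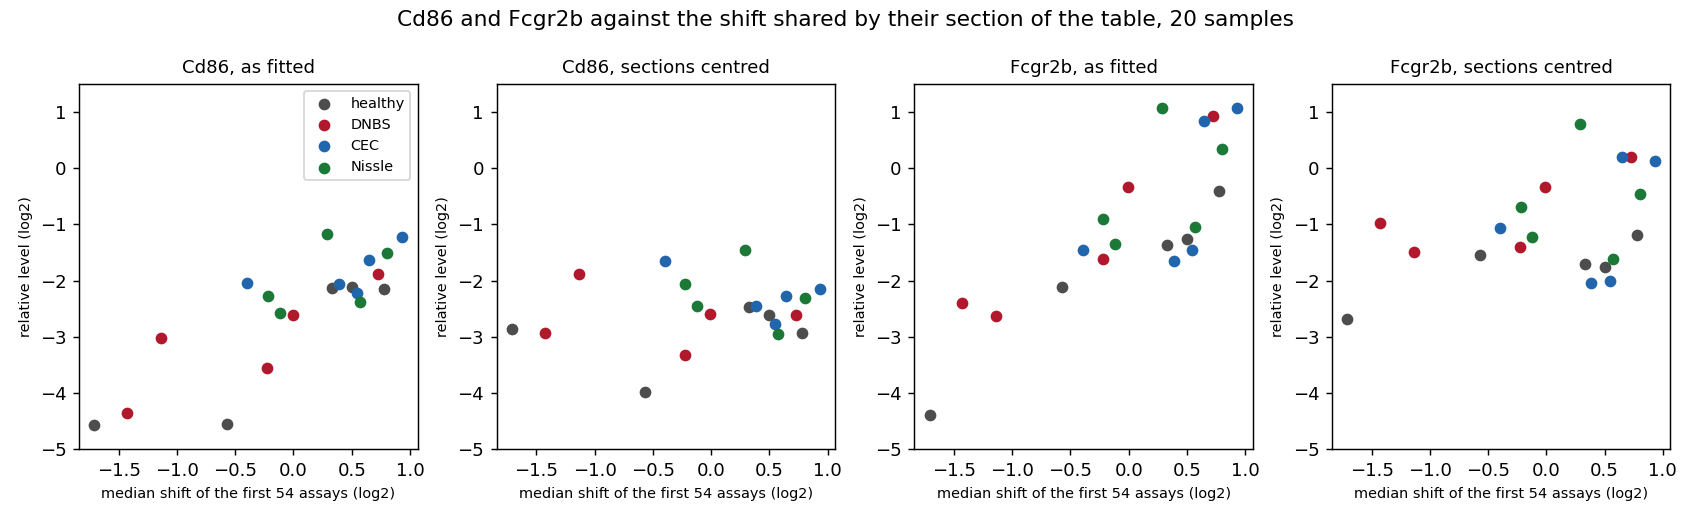
Relative level (log2, vertical) of Cd86 and Fcgr2b in 20 samples against the median shift of the first 54 assays of the table (log2, horizontal), as fitted and after centring each section. The lowest Fcgr2b value, -4.38, belongs to the sample with the lowest shift, -1.71, and after centring the Cd86 values no longer rise along the axis.

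The partners of Cd86 and Fcgr2b gave no called assay. Of 7 costimulation assays 4 were higher in DNBS than in healthy (median 0.01), and 0 passed. Icosl, the ligand of Icos, was at -0.79 (SE 0.28, adjusted p = 0.158) and Ctla4, the inhibitory receptor for Cd86, at 1.02 (SE 0.42, adjusted p = 0.247). Of the other Fc receptor genes, Fcer1g, the signalling chain of the activating receptors, was tested, and it was at 0.17 in DNBS against healthy (SE 0.34) and at 0.14 in CEC against DNBS.

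Cx3cr1 was highest in the CEC group. CEC values were -0.13, -0.29, -0.71, -0.52 and -0.49, a narrow band above every healthy value (-0.89, -1.13, -0.83, -2.87 and -1.18) and every DNBS value (-1.53, -0.88, -1.65, -1.91 and -2.57). Nissle values were -1.99, -0.38, -0.66, -1.36 and -1.35 and overlapped all other groups. Means were -0.43 ± 0.22 in CEC, -1.15 ± 0.64 in Nissle, -1.38 ± 0.85 in healthy and -1.71 ± 0.61 in DNBS (SD, n = 5), and the last 3 differed by less than their spread. CEC exceeded DNBS by 1.28 (SE 0.40, 2.43-fold, higher in 5 of 5), with the smallest unadjusted p of the 7 markers in that comparison (0.00415), yet it did not pass adjustment (adjusted p = 0.385). CEC exceeded healthy by 0.95 (SE 0.40, 1.94-fold, 5 of 5, adjusted p = 0.803), and DNBS stood at -0.33 against healthy (SE 0.40, adjusted p = 0.771). With sample weights CEC minus DNBS was 1.16 and passed (adjusted p = 0.0232), as did 8.26% of all assays. With the sample number as a block it was 1.62 (adjusted p = 0.263). Over the 32 alternatives the adjusted p ran from 0.0232 to 0.632.

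Shifts shared with other assays stood beside the Cx3cr1 result. The assay has the suffix _s1, meaning that primers and probe lie in 1 exon, so that genomic DNA can be amplified too. The 53 tested assays of this kind had a median of 0.64 in CEC against DNBS and of -0.20 in CEC against healthy. With _s1, _g1 and _sH assays centred together on their joint mean, CEC exceeded DNBS by 1.01. The 51 tested _g1 assays had a median of -0.009 in that comparison, so this took out only part of the _s1 shift. With sections centred the _s1 assays still had a median of 0.50 in CEC against DNBS. Cx3cr1 was then 0.82 higher in CEC than in DNBS (SE 0.23, adjusted p = 0.394), still with every CEC sample above every DNBS sample. CEC and healthy then overlapped for Cx3cr1 (0.55, SE 0.23). Before centring, 3.16% of all assays had no overlap between CEC and DNBS, and the share after centring was not counted. Without healthy 5, the lowest of its group, CEC minus healthy was 0.58. The part of genomic DNA in the signal was not tested.

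The assays most like Cx3cr1 were the joint assay for Tnfsf12 and the Tnfsf12-tnfsf13 read-through (r 0.86), the complement gene C6 (r 0.84) and Tpst1, a sulfotransferase (r 0.82). With sections centred these were 0.55, 0.35 and 0.62. Of 7 assays for fractalkine (Cx3cl1), monocyte chemoattractants, their receptor Ccr2 and Csf1, 6 were higher in DNBS than in healthy (median 0.44), and 0 passed. Both assays of Ccl7, a monocyte chemoattractant, were higher in all DNBS samples than in any healthy sample, by 2.33 (SE 0.87, adjusted p = 0.163) and 1.90 (SE 0.76, adjusted p = 0.224), and Ccl2 was 1.79 higher (SE 0.81, adjusted p = 0.307). In CEC against DNBS 2 of the 7 were higher (median -0.65), and 0 passed, while Cx3cr1 itself stood at 1.28.

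Cd74 was lower in the DNBS group. Healthy values were 8.24, 8.44, 8.70, 7.61 and 8.46, and DNBS values 7.95, 7.35, 7.54, 7.19 and 7.45. Of the 5 DNBS samples, 4 were under the lowest healthy value and DNBS 1 was above it. CEC values were 7.69, 7.53, 8.41, 8.36 and 8.45, with CEC 1 and 3 in the DNBS range and the other 3 above it. All but CEC 3 lay in the healthy range. Nissle values were 6.84, 8.17, 8.01, 7.88 and 8.20, and Nissle 1 was the lowest of all 20. Means were 8.29 ± 0.41 in healthy, 8.09 ± 0.44 in CEC, 7.82 ± 0.56 in Nissle and 7.50 ± 0.29 in DNBS (SD, n = 5), each step within the spread. DNBS minus healthy was -0.79 (SE 0.28, a 1.73-fold difference, unadjusted p = 0.0094, adjusted p = 0.158), and CEC minus DNBS was 0.59 (SE 0.28, adjusted p = 0.455), or 0.31 with sections centred (SE 0.24). Nissle minus healthy was -0.47 (adjusted p = 0.516), -0.23 without Nissle 1 and -0.79 without Nissle 3, 4 and 5. With sample weights, DNBS minus healthy was -0.94 (adjusted p = 0.00521) and CEC minus DNBS 0.79 (adjusted p = 0.0257). Both passed, as did 17.8% and 8.26% of all assays. Over the 32 alternatives the adjusted p ran from 0.00521 to 0.728 and from 0.0257 to 0.796.

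Centring the sections narrowed the healthy values of Cd74 to between 8.22 and 8.43 (8.32 ± 0.08, SD, n = 5). The DNBS samples, from 7.16 to 8.13, were then all under them, with a DNBS minus healthy difference of -0.72 (SE 0.24, adjusted p = 0.134). In all, 13 of the 15 samples that received DNBS then lay below the lowest healthy sample. Before centring, 4.75% of all assays had no overlap between DNBS and healthy, and the share after centring was not counted. On the scale without this centring 6 of the 15 lay below the lowest healthy sample. Cd74 opposed Cd14 (r -0.83, rho -0.80) and Chi3l3 (r -0.75, rho -0.79) over the 20 samples. The assays most like Cd74 were Ccl25, the chemokine of small intestinal epithelium (r 0.92, rho 0.92), Nmi, an interferon-induced gene (r 0.89), and Hdac5, a histone deacetylase (r 0.83). Ccl25 and Hdac5 lie in the same section as Cd74. With sections centred the values were 0.94, 0.88 and 0.80.

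Genes of the MHC class II and MIF partners of Cd74, and of the cells that make it, were few on the panel. No MHC class II gene, Ciita or Mif was among the assays. Of Cd44, Cxcr4 and Cd4, listed as partners of MHC class II or MIF, 2 were higher in DNBS than in healthy and 0 passed. Cd4, listed as a T cell gene too, was at -0.80 (SE 0.33, adjusted p = 0.229). The B cell gene Cr2 was at -0.62 (SE 0.68). The 3 assays of small intestinal epithelium, for Ccl25 and Apoa1, were all lower in DNBS than in healthy (median -0.73), and 0 passed. All 3 were higher in CEC than in DNBS (median 1.16), and 0 passed. With sections centred these medians were -0.59 and 0.75. Ccl25 was at -1.49 in DNBS against healthy (SE 0.49, adjusted p = 0.15), with every DNBS sample below every healthy one. The part of epithelial or B cell RNA in the Cd74 difference was not tested.

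**Figure D4:**
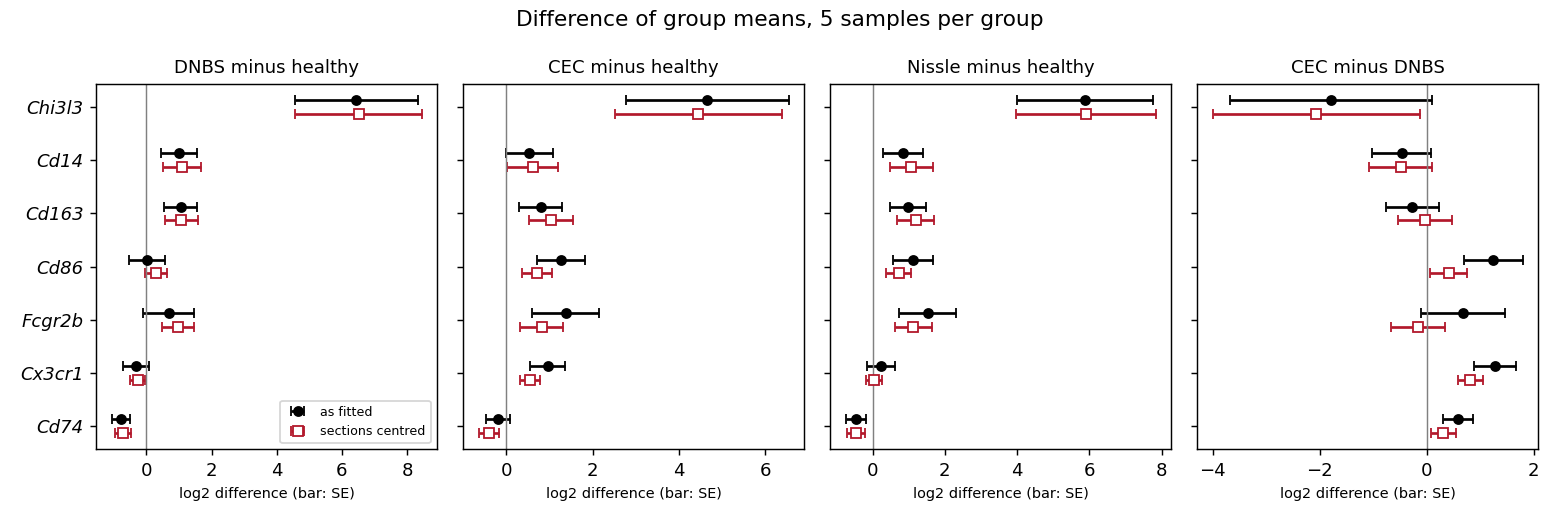
Difference of group means (log2, bar: SE, 5 samples per group) of the 7 markers in 4 comparisons, as fitted (filled) and with sections of the table centred (open). Chi3l3 has the largest differences from healthy and the widest errors, and between CEC and DNBS the Cd86 and Fcgr2b values shift from 1.25 to 0.41 and from 0.68 to -0.16 on centring.

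Counted together, 0 of the 7 markers passed an adjusted p of 0.05 in any of the 6 comparisons. Over all 569 assays the share passing was 0.176% (1 assay) in DNBS, CEC and Nissle each against healthy, and 0% in the 3 comparisons among the groups that received DNBS. At an unadjusted p of 0.05, 3 of 7 passed between DNBS and healthy (Chi3l3 and Cd163 higher, Cd74 lower) against 14.6% of all assays. Cd163 dropped out, leaving 2, without CEC 1, DNBS 3, DNBS 4, DNBS 5, Nissle 3, Nissle 5, healthy 1b, healthy 4 or healthy 6. The count was 4 without Nissle 1, with Cd14 added. Between CEC and healthy 3 of 7 passed at that level (Chi3l3, Cd86 and Cx3cr1, all higher) against 3.87%. That count was 0 without CEC 1, and 1 without CEC 3, healthy 5 or healthy 6. Between Nissle and healthy 1 of 7 did (Chi3l3) against 9.49%. Between CEC and DNBS 3 of 7 did (Cd86, Cx3cr1 and Cd74, all higher) against 10.7%. Leaving out any 1 CEC or DNBS sample lowered that count to 2, or to 1 (Cx3cr1) without DNBS 3. It was also 2 without Nissle 3, Nissle 4, healthy 1b, healthy 3 or healthy 6. Cx3cr1 had an unadjusted p under 0.05 each time. None of the 7 passed at that level between Nissle and DNBS (4.22% of all assays) or between CEC and Nissle (1.41%). With sections centred, 1 of 7 passed between CEC and DNBS (Cx3cr1, 7.73% of all assays), where Cd86 and Cd74 no longer did. The counts were then 3 of 7 between DNBS and healthy (20% of all assays), 2 between CEC and healthy (4.57%), 3 between Nissle and healthy (10.5%), 0 between Nissle and DNBS (4.04%) and 1 between CEC and Nissle (3.16%).

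Groups did not overlap for 1 of 7 markers between DNBS and healthy (Cd14; 4.75% of all assays in either direction), between CEC and healthy (Cx3cr1; 0.879%), between Nissle and healthy (Chi3l3; 2.99%) and between CEC and DNBS (Cx3cr1; 3.16%). In DNBS against healthy 5 of the 7 were higher, with a median of 0.69 where all assays had -0.07. Without healthy 5 that median was 0.07, and without DNBS 2 it was 0.16. In CEC and in Nissle against the same healthy samples 6 of 7 were higher, with medians of 0.95 and 0.97 where all assays had -0.08 and -0.10. In CEC against DNBS 4 of 7 were higher, with a median of 0.59 where all assays had -0.02. With sections centred 3 of 7 were higher there, and the median was -0.03 where all assays also had -0.02. Without CEC 1 the median was 0.28, without DNBS 5 0.33, without CEC 3 0.34 and without DNBS 1 0.38.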

How the data were processed

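RNA of 20 ileal mucosa samples, 5 per group, was isolated with the mirVana kit and measured on the TaqMan OpenArray mouse inflammation panel, per the labels' protocols. The deposited table holds raw, non-normalized Ct values (unit other), and its header calls it a truncated example, per the file headers. A Ct of 40 was read as no amplification and left missing. Baseline, threshold and well replicates are not given in the sources used here.

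Each level was the negative Ct, centred per sample on the 544 assays measured in all samples. Group means were fitted over the 20 samples with limma 3.58.1 in R 4.3.3 (empirical Bayes with a trend, two-sided), and p-values were adjusted by Benjamini-Hochberg at 0.05 over the 569 assays with at least 3 values per group. The fit was run on simulated data with independent values per assay and no section shifts, so that run cannot show how such shifts affect it. Likeness was the Pearson correlation over 20 samples, 3 assays named per marker. From each gene list, up to 4 assays with the smallest p in a comparison could be named. Members and lists were chosen with earlier results of these data known.

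Titles number the samples. DNBS and healthy have 3 numbers in common, and the deviations of such pairs from their group means correlated at 0.18, 0.14 and 0.49. The labels give no such pairing, so the model has no block and blocked values are given where they matter. In the blocked fit CEC 7, CEC 8, healthy 1b and healthy 6 carry no weight in the group differences, because no other group has their numbers.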

Additional observations from a re-analysis of the deposited data

Results flagged for a closer look

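In 3 of 28 groups of 5 samples, 1 sample lay farther from the rest than Dixon's 95% critical ratio of 0.71, where chance gives about 1 in 20. Cd14 in Nissle 1 stood at 3.13 with the nearest Nissle sample at 0.25 (ratio 0.759). Cd74 in Nissle 1 stood at 6.84 with the nearest at 7.88 (ratio 0.763). Cx3cr1 in healthy 5 stood at -2.87 with the nearest at -1.18 (ratio 0.832), and the section of the table that holds it was shifted by -1.34 in that sample.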

How the results depend on the processing

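Each of the 42 differences was recomputed under 12 other settings and without each of the 20 samples. The number of the 7 markers passing was 0 in every comparison and setting, with these exceptions. Sample weights gave 4 between DNBS and healthy (Chi3l3, Cd14, Cd163 and Cd74), where 17.8% of all assays passed. They gave 3 between CEC and DNBS (Chi3l3, Cx3cr1 and Cd74), where 8.26% of all assays passed. Leaving out 1 sample at a time gave 0 to 1 between DNBS and healthy, the 1 being Chi3l3 without DNBS 5, where 1.23% of all assays passed. With the sample number as a block (replicate block) the count was 0 in all 6 comparisons, so the block changed no call. Centring sections and leaving out the 3 samples of widest section shifts were chosen after seeing the data. The causes of the changes below were not tested.

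Signs turned for differences from 0.02 (Cd86, DNBS minus healthy) to -1.79 (Chi3l3, CEC minus DNBS). DNBS minus healthy for Cd86 was -0.0533 on reference assays, -0.46 with sample weights and -0.38 with the replicate block. Nissle minus DNBS for Cd163 was 0.0516 on reference assays, 0.12 without normalization, 0.0252 with sample weights and 0.13 with sections centred, and for Cd14 it was 0.0547 without normalization. CEC minus Nissle was -0.0253 on reference assays and -0.25 without normalization for Cd86, and -0.13 without normalization for Cd74. The replicate block gave 0.51 for Chi3l3 in CEC minus DNBS, and 1.07 for Chi3l3 and 0.999 for Fcgr2b in CEC minus Nissle. Without Nissle 3, 4 and 5, Nissle minus DNBS was 1.33 for Chi3l3 and 0.75 for Cd14, and CEC minus Nissle was 0.57 for Cd163 and -0.50 for Cd86. With sections centred, CEC minus DNBS was -0.16 for Fcgr2b and CEC minus Nissle -0.0136 for Cd86. Without the 3 samples of widest shifts, Nissle minus healthy was -0.14 for Cx3cr1, and for Fcgr2b CEC minus DNBS was -0.19 and Nissle minus DNBS -0.0335.

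Leaving out 1 sample at a time turned 10 differences: Cd86 in DNBS minus healthy (-0.35 to 0.34), Cx3cr1 in Nissle minus healthy (-0.14 to 0.44), Cd163 in CEC minus DNBS (-0.59 to 0.0505), Chi3l3 (-2.06 to 0.16), Cd14 (-0.84 to 0.11) and Cd163 (-0.42 to 0.11) in Nissle minus DNBS, and Cd14 (-0.65 to 0.37), Cd163 (-0.50 to 0.15), Cd86 (-0.0074 to 0.35) and Fcgr2b (-0.55 to 0.21) in CEC minus Nissle. Precision is limited by 5 samples per group, by Ct values without well replicates, and by 1 assay per marker.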
